A study of Mus musculus with 8 samples.

Results

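The miR-15/16 family is a group of miRNAs that share 1 seed, and 6 of its 5p guide strands were described here: mmu-miR-16-5p, mmu-miR-15a-5p, mmu-miR-195a-5p, mmu-miR-497a-5p, mmu-miR-15b-5p and mmu-miR-322-5p (mostly written without the species prefix below). They were chosen by name and are 6 of the 895 miRNA names in a table of RISC-bound short RNAs (R-sRNAs) from mouse brain, where they account for 477 of 47204 distinct sequences. The table holds 8 libraries, 4 from 5XFADtg Rubicon+/- mice (het1 to het4) and 4 from 5XFADtg Rubicon-/- mice (ko1 to ko4), each from a different animal. All 8 mice carried the 5XFAD transgene, which drives mutant human amyloid precursor protein and presenilin in neurons, so both groups are disease models and no mouse without the transgene was compared. Rubicon restrains autophagy, and the comparison asks what its loss does to the RISC of a brain that forms amyloid. The study's methods give female mice, 6 or 8 months old, on a mixed C57BL/6J/SJL background, and its account of the RISC comparison gives an age of 6 months, matched between genotypes. Cortex and hippocampus were combined and Argonaute complexes were pulled down with a GW182 peptide. RNA outside the RISC was not analysed here, so a level below is a share of what was loaded.

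A guide strand finds its targets mainly through the seed, bases 2 to 7 (the 6mer seed) or 2 to 8 from its 5' end. The miR-15/16 family is known as a brake on the cell cycle and on survival genes such as Bcl2 and Ccnd1, and the loss of the miR-15a and miR-16-1 locus is a classic lesion of chronic lymphocytic leukaemia. In the deposited table each read carries a viability score, which is the mean viability of mouse cell lines given a short RNA with that 6mer seed in an earlier screen. A low score marks a toxic seed. It was not measured in these mice.

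The mature strands are shown to make clear what the members share and where they part. Each is the RefSeq sequence (GRCm38.p6), 5' to 3', with bases 2 to 8 in capitals.

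miR-16-5p: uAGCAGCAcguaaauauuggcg

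miR-195a-5p: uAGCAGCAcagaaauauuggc

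miR-15a-5p: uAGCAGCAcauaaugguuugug

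miR-15b-5p: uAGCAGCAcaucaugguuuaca

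miR-497a-5p: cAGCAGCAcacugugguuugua

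miR-322-5p: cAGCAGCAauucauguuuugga

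miR-503-5p, the nearest relative in the data: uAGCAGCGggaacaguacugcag

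All 6 members have the same bases 2 to 8, and miR-503-5p has the 6mer but not base 8. The first base splits them, since miR-497a-5p and miR-322-5p begin with c and the others with u. Outside the seed they are unequal relatives. miR-16-5p and miR-195a-5p have 19 of 21 compared bases in common and first differ at base 10, whereas miR-16-5p and miR-497a-5p have 11 of 22 in common. miR-15a-5p and miR-15b-5p have 18 of 22 in common.

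The members come from 4 places in the genome (GRCm38.p6). Mir15a (mature strand at chr14:61632075-61632096) and Mir16-1 (hairpin at chr14:61631880-61631972) lie on the minus strand of chromosome 14 within the long non-coding gene Dleu2, the first in an intron and the second overlapping an exon of one of its transcripts. Mir15b (chr3:69009772-69009835) and Mir16-2 (chr3:69009902-69009996) lie on the plus strand in an intron of Smc4, which encodes a condensin subunit. Mir497 (chr11:70234717-70234800) and Mir195a (chr11:70235042-70235135) are neighbours on the plus strand of chromosome 11, and Mir322 (chrX:53054255-53054349) and Mir503 (chrX:53053984-53054054) on the minus strand of the X chromosome, both pairs outside other annotated genes. miR-16-5p is made from both Mir16-1 and Mir16-2, whose mature 5p strands are identical, so most of its reads cannot be divided between the loci. The hairpins differ just past the mature strand, and reads of 24 nt or more whose ends matched Mir16-1 averaged 42.3 CPM and those that matched Mir16-2 7.82 CPM. An added u or a could give the same ends, so these levels do not divide miR-16-5p between the loci.

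The libraries ranged from 509839 to 19878054 reads, recovered from the deposited CPM, that is reads scaled to 1000000 per library. The 2 deepest were ko1 and ko2. Markers of neurons were high throughout, with the summed CPM of miR-124-3p, miR-9-5p and miR-128-3p between 145125 and 247446. Of the 5 markers of choroid plexus and other epithelium, 3 were called lower in ko, against 6 of all 463 miRNAs tested (1.30%). The 5 markers summed to 5307 to 9428 CPM in het and 2771 to 4960 CPM in ko. The 3 blood markers summed to 1902 to 3384 CPM in het and 908 to 2367 CPM in ko, the 2 oligodendrocyte markers to 5981 to 9574 and 4002 to 6927 CPM, and the 3 leukocyte markers to 567 to 779 and 392 to 693 CPM, with overlapping groups and 0 called. The 2 endothelial markers summed to 6038 to 11056 CPM in het and 6112 to 11931 CPM in ko. Their part in the levels below was not tested. Fewer cells of a type and less RNA per cell cannot be told apart in such bulk tissue.

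miR-16-5p dominated the family and miR-322-5p was its scarcest member. Their mean levels were 71.3-fold apart. mmu-miR-16-5p averaged 12288 CPM ± 3271 (SD, n = 8) and ranked 19th of the 895 names. It was followed by mmu-miR-15a-5p at 3085 ± 880 CPM, mmu-miR-195a-5p at 920 ± 188, mmu-miR-497a-5p at 745 ± 234, mmu-miR-15b-5p at 459 ± 101 and mmu-miR-322-5p at 172 ± 37.3. The strands are of nearly the same length and CPM counts whole reads, but equal capture and ligation of the members, which differ in their first base and 3' ends, was not tested.

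Of the 5 steps in this order, 4 passed a test against the spread of the step over libraries. The order was set by the means of the same 8 libraries, which fixes the direction of each step, so the tests bear only on how evenly it held. miR-16-5p lay above miR-15a-5p by 1.99 ± 0.40 on the log2(CPM + 1) scale (SD of the within-library difference, n = 8, exact sign-flip test, two-sided, adjusted p = 0.0130). miR-15a-5p lay above miR-195a-5p by 1.72 ± 0.36 (exact adjusted p = 0.0130), and miR-15b-5p above miR-322-5p by 1.42 ± 0.58 (exact adjusted p = 0.0130). All 3 held in 8 of 8 libraries. The step from miR-497a-5p to miR-15b-5p was 0.67 ± 0.50 and held in 7 of 8 (exact adjusted p = 0.0195). miR-195a-5p and miR-497a-5p did not differ beyond their spread (0.34 ± 0.66, higher in 5 of 8, exact p = 0.188). In het1, het4 and ko4 their order was turned.

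**Figure D1:**
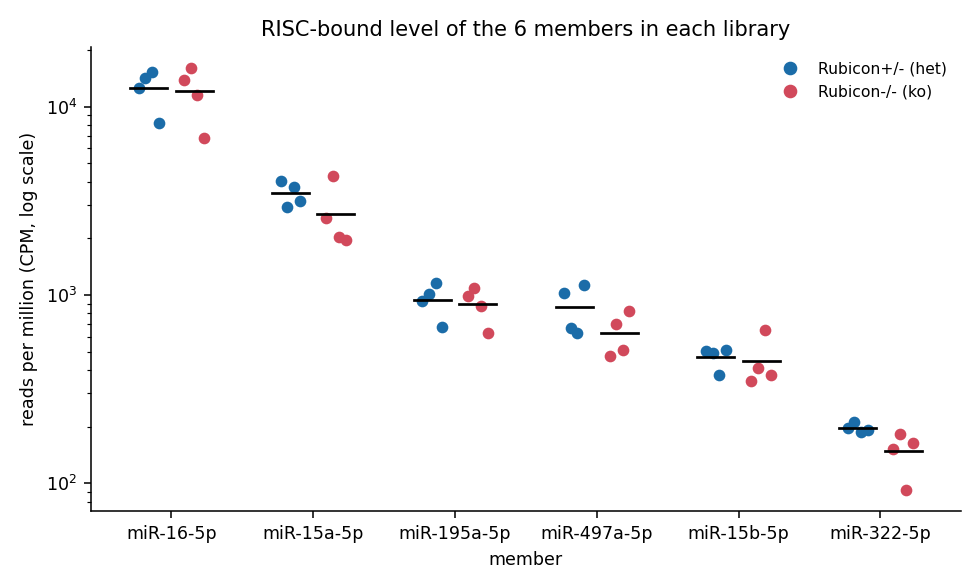
Level of each member in CPM (log axis), with 1 point per library (4 het, 4 ko) and a black line at the group mean. miR-16-5p lies between 6836 and 15940 CPM and miR-322-5p between 91.9 and 210 CPM, and the het and ko points overlap for every member but miR-322-5p.

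The members were then compared between the genotypes. None passed the test, and for miR-16-5p, miR-195a-5p and miR-15b-5p the log2 fold changes lay between -0.10 and -0.08. In het1 to het4, miR-16-5p stood at 12508, 14187, 15242 and 8223 CPM, and in ko1 to ko4 at 13834, 15940, 11534 and 6836 CPM. The lowest library of each genotype was its number 4, and the ranges overlapped almost in full. The limma log2 fold change (ko against het, on log2(CPM + 1)) was -0.09 (SE 0.30, adjusted p = 0.975).

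miR-195a-5p, its closest relative in sequence, stood at 927, 1016, 1158 and 677 CPM in het and at 993, 1094, 870 and 628 CPM in ko. Here too het4 and ko4 were lowest. The fitted difference was -0.08 on the log2 scale (SE 0.27; adjusted p = 0.975 by limma). miR-15b-5p, the Smc4 member, stood at 502, 492, 375 and 511 CPM in het and at 351, 408, 655 and 377 CPM in ko, with 1 ko library above all the others. Between genotypes it differed by -0.10 on the log2 scale (SE 0.26; adjusted p = 0.975 by limma). The sign of these 3 members depends on scaling. It turned positive under median centring, edgeR and DESeq2.

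The other 3 members had lower means in ko, by amounts within 2 SE. miR-15a-5p, whose locus is deleted in leukaemia, stood at 4048, 2914, 3735 and 3173 CPM in het and at 2561, 4259, 2040 and 1950 CPM in ko. The highest and the lowest library were both ko. On the log2 scale the ko mean was lower by an estimated -0.42 (SE 0.29; adjusted p = 0.796 by limma).

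miR-497a-5p stood at 1025, 667, 627 and 1130 CPM in het and at 477, 699, 511 and 823 CPM in ko. Each group held a high and a low pair. The log2 estimate was -0.45 with an SE of 0.29 and a limma adjusted p of 0.796.

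miR-322-5p, the mouse counterpart of human miR-424, stood at 197, 210, 188 and 193 CPM in het and at 152, 182, 91.9 and 165 CPM in ko. It was the only one of the 6 members whose groups did not overlap. Among all 463 miRNAs tested, every ko library lay below every het library for 3.24%. In the limma fit its log2 change was -0.46, with an SE of 0.29 and an adjusted p of 0.796.

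Of the 6 members 0 were called, against 1.30% of all miRNAs tested (6 of 463, all lower in ko). The lowest unadjusted limma p among the members was 0.138, so 0 members had one under 0.05, against 7.34% of all miRNAs tested. On the recovered reads edgeR and DESeq2 called 0.864% and 1.94% of all miRNAs tested, and 0 members. All 6 log2 fold changes were below 0, as were 59.4% of those of all miRNAs tested, and their median was -0.26 against -0.09 over all. Centring the libraries on their median moved the median of all miRNAs from -0.09 to 0.13, and the members moved with it.

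The strands opposite the guides give a second reading of each locus. Each locus put its 5p strand forward in 8 of 8 libraries, but not to the same degree. The mean CPM of miR-16-5p was 761 times the sum of its 2 passenger strands, miR-16-1-3p and miR-16-2-3p. The ratio was 178 for miR-15a, 153 for miR-195a, 73.3 for miR-15b and 21.7 for miR-497a. Without het1, where miR-195a-3p stood at 23.2 CPM against 0.688 to 8.82 elsewhere, the miR-195a ratio was 259 and that of miR-15a 157, so their order rests on that library. In single libraries the miR-195a ratio ran from 40 to 1476. The ratio was lowest at 6.99 for miR-322, where the passenger made up 12.5% of both arms. These ratios rest on few reads of the scarce strands, from 132 for miR-195a-3p to 1130 for miR-497a-3p over the 8 libraries.

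Of the 7 passenger strands 4 had a mean of at least 10 CPM and were tested, and 0 were called by limma, edgeR or DESeq2, while 2 had an unadjusted limma p under 0.05 (miR-322-3p, 0.0404, and miR-497a-3p, 0.0464). Of all 463 miRNAs tested, 7.34% had an unadjusted limma p under 0.05, and edgeR and DESeq2 called 0.864% and 1.94%. miR-322-3p stood at 36.7, 33.7, 29.1 and 27.0 CPM in het and at 14.6, 24.9, 18.5 and 12.7 CPM in ko. Its groups did not overlap, as with miR-322-5p, the other arm of the same hairpin. Every ko library lay below every het library for 3.24% of all miRNAs tested. The fitted log2 difference was -0.84, SE 0.37, and did not pass (limma adjusted p = 0.593).

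miR-497a-3p averaged 45.8 ± 17.9 CPM in het and 22.9 ± 11.5 CPM in ko (SD, n = 4), with overlapping groups, and differed by -1.07 on the log2 scale with an SE of 0.49 (adjusted p = 0.613, limma). miR-15a-3p and miR-16-2-3p had means of 17.4 and 11.9 CPM and log2 fold changes of 0.12 and -0.61 (limma adjusted p = 0.975 for both). The 3 strands left out by the filter, miR-15b-3p, miR-195a-3p and miR-16-1-3p, averaged 6.27, 6.01 and 4.25 CPM.

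The X-linked locus of miR-322 also makes miR-503, and further along miR-351, miR-542 and miR-450. Of 11 listed strands, which were cluster partners or named as copies of members, 9 were in the table and 3 were tested. Of these 3, 0 were called by limma, edgeR or DESeq2, and 0 had an unadjusted limma p under 0.05. All miRNAs tested gave 1.30% called by limma and 7.34% under 0.05. miR-503-5p stood at 48.3, 44.0, 29.5 and 51.4 CPM in het and at 10.9, 19.6, 23.2 and 47.0 CPM in ko. Its lowest 3 libraries were ko and its ko4 was among the highest, so the groups overlapped. The estimate was -0.91 on the log2 scale, SE 0.44, with an adjusted p of 0.613 from limma. It was -0.59 without ko1, -1.26 without ko4 and -0.35 without the 2 deepest libraries. For miR-351-5p it was -0.74 (SE 0.59) and for miR-450a-5p 0.33 (SE 0.41), with limma adjusted p-values of 0.919 and 0.975.

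Of 5 pairs of relatives compared across the 8 libraries, 1 passed the correlation test, and its members come from different loci. miR-16-5p and miR-195a-5p had a Pearson r of 0.989 on the log2(CPM + 1) scale (Spearman rho 0.976, n = 8, exact permutation p = 0.000149 and 0.000397, adjusted over 6 pairs 0.000893 and 0.00238). Without the 2 libraries farthest from the median of miR-16-5p, het4 and ko4, r was 0.953, and within genotypes, as deviations from the group means, it was 0.989. miR-195a-5p ranked first in likeness to miR-16-5p among the 277 other miRNAs that averaged 100 CPM or more, and the next was miR-382-3p with an r of 0.937. miR-195a-5p stayed at 7.65% ± 0.74 of the miR-16-5p level (SD, n = 8), between 6.87% and 9.19%.

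The same ratio was taken between the most abundant read of each member. It was 5.14% ± 0.64 (SD, n = 8). These reads were:

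miR-16-5p read: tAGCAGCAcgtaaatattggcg

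miR-195a-5p read: tAGCAGCAcagaaatattggca

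The pairs that share a locus did not pass, which does not show that they vary independently, and miR-16-5p reads mix 2 loci. miR-15a-5p and miR-16-5p, which share Dleu2, had an r of 0.586 (rho 0.667, n = 8, exact permutation p = 0.137 and 0.0831, adjusted 0.375 and 0.230), and r was 0.633 without the 2 farthest libraries. miR-15a-5p ranked 51st of 277 in likeness to miR-16-5p and ranged from 17.7% to 38.6% of its level. miR-195a-5p and miR-497a-5p, whose hairpins are neighbours on chromosome 11, had an r of -0.518 (rho -0.429, n = 8, exact permutation p = 0.187 and 0.299, adjusted 0.375 and 0.359). It was 0.02 without the 2 farthest libraries, so the sign rests on het4 and ko4. miR-497a-5p ranged from 48.0% of miR-195a-5p in ko1 to 167% in het4.

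For miR-16-5p and miR-15b-5p r was -0.113 (rho -0.381, n = 8, exact permutation p = 0.743 and 0.360, adjusted 0.743 and 0.360). It was -0.779 without the 2 farthest libraries. For miR-322-5p and miR-503-5p r was 0.441 (rho 0.619, n = 8, exact permutation p = 0.317 and 0.115, adjusted 0.380 and 0.230) and 0.174 without the 2 farthest. Within genotypes, as deviations from the group means, r was 0.625 for miR-16-5p with miR-15a-5p and -0.707 for miR-195a-5p with miR-497a-5p. By the same measure it was -0.136 for miR-16-5p with miR-15b-5p and 0.050 for miR-322-5p with miR-503-5p. CPM values of 1 library share a total, and the pairs were chosen after levels had been seen.

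**Figure D2:**
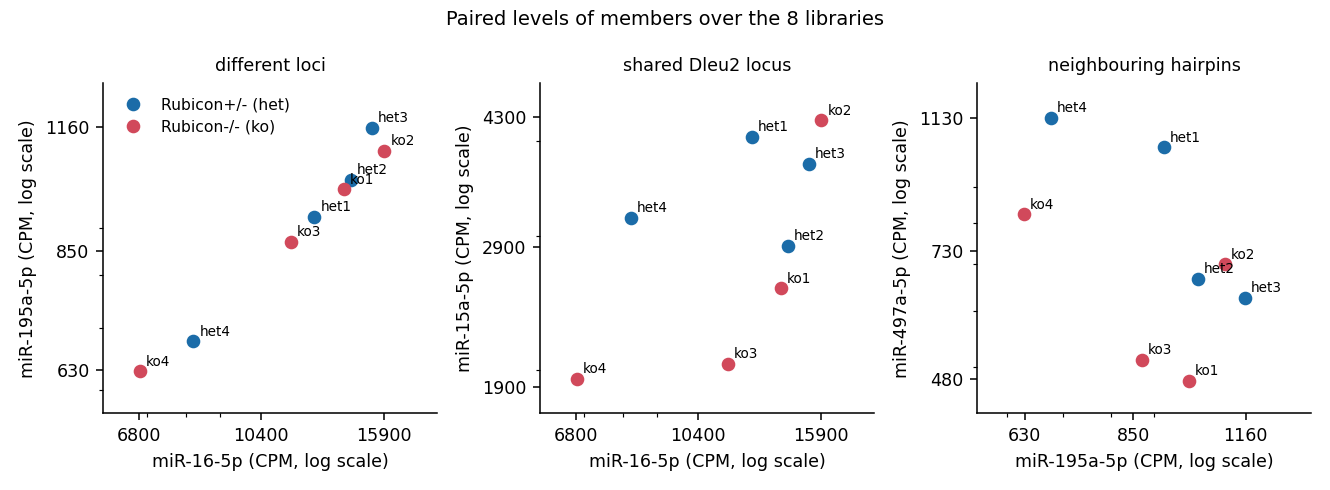
Paired levels in CPM (log axes) for 3 pairs of members, 1 point per library, coloured by genotype. miR-16-5p and miR-195a-5p fall on a line (r = 0.989), miR-16-5p and miR-15a-5p scatter more (r = 0.586), and miR-195a-5p and miR-497a-5p show no relation that passed the test (r = -0.518, and 0.02 without het4 and ko4).

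The miRNAs outside the family most like its summed level were miR-411-5p (r = 0.929), miR-152-3p (r = 0.926) and miR-872-5p (r = 0.901), of 272 compared over the 8 libraries. These values are descriptions. miR-411-5p belongs to the large imprinted miRNA cluster of the Dlk1-Dio3 region, and miR-152-3p to the miR-148 family.

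Together the members held between 1.09% and 2.26% of all reads. The share was 1.95%, 1.96%, 2.15% and 1.41% in het1 to het4 and 1.84%, 2.26%, 1.58% and 1.09% in ko1 to ko4. The lowest library in each genotype was again number 4. The means were 1.87% ± 0.32 and 1.69% ± 0.49 (SD, n = 4), a difference that was smaller than the spread between mice (exact permutation test, two-sided, p = 0.571, adjusted over 6 measures p = 0.686). The 95% Wilson interval of 1 library was at most 0.0759 percentage points wide, against an SD between mice of 0.32 in het and 0.49 in ko. Such intervals cover counting error only.

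miR-16-5p made up 67.1% ± 6.3 of the family in het and 70.7% ± 5.2 in ko (SD, n = 4, exact permutation p = 0.429, adjusted 0.643). Over the 8 libraries its share ran from 59.1% in het4 to 75.3% in ko1. miR-15a-5p held 17.5% on average, miR-195a-5p 5.25%, miR-497a-5p 4.55%, miR-15b-5p 2.75% and miR-322-5p 1.02%.

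The place of the family among reads with a toxic seed follows from the score of its seed, since 98.3% of member reads score under 40. The main 6mer, bases AGCAGC, has a viability of 37.8, which is 2.2 below the threshold of 40 that defines a toxic seed here. This seed was the 12th most abundant of 3427 and, among the 766 seeds under 40, the first or the second in each of 8 libraries. Of the reads with this seed the 6 members held 98.7% ± 0.3 (SD, n = 8). miR-503-5p held 0.196%, and reads without a miRNA name 0.962%.

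Reads with a viability under 40 made up 10.5% to 14.4% of the libraries. Among them the family held 15.2%, 13.4%, 16.8% and 10.3% in het1 to het4 and 16.8%, 16.9%, 11.0% and 10.2% in ko1 to ko4. The 4 highest and the 4 lowest libraries both mix the genotypes. The means were 13.9% ± 2.8 in het and 13.7% ± 3.6 in ko (SD, n = 4, exact permutation p = 0.886, adjusted 0.886). The Wilson interval of 1 library was at most 0.555 percentage points wide.

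As a single name miR-127-3p led these reads with 11.4% ± 2.9 (SD, n = 8), and miR-16-5p came second with 9.63% ± 2.55. miR-24-3p followed with 9.04% ± 1.52, miR-22-3p with 8.17% ± 2.96 and miR-124-3p with 8.15% ± 2.87. miR-15a-5p ranked 11th with 2.42% ± 0.65, and miR-195a-5p, miR-497a-5p, miR-15b-5p and miR-322-5p held 0.726%, 0.583%, 0.353% and 0.126%. The 6 members summed lay above every other name in 5 libraries, het1, het2, het3, ko1 and ko2. In het4 and ko3 miR-127-3p was higher, with 13.6% and 15.7%, and in ko4 miR-124-3p, with 13.3%. Of the reads of miR-124-3p itself 19.0% scored under 40, against 95.5% for miR-127-3p and 98.4% for miR-16-5p.

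The place of the family in the toxic class depends on the threshold. With a limit of 30 the share was between 0.128% and 0.202%, since nearly all member reads have the score of 37.8. With a limit of 50 it was 4.12% to 7.66%, and the genotypes still overlapped. The mean viability of member reads was 37.9 to 38.0 in the 8 libraries.

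**Figure D3:**
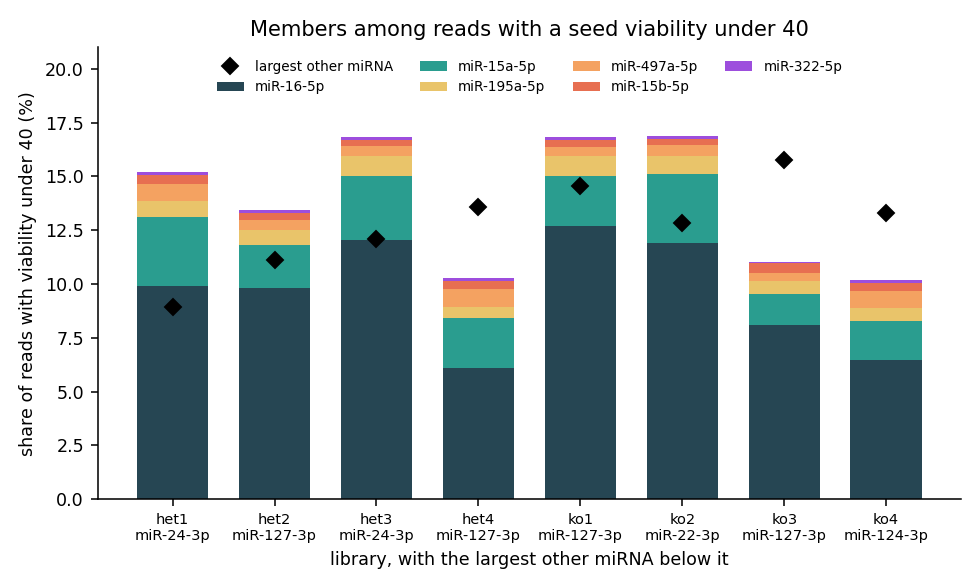
Share of reads with a seed viability under 40 held by each member (stacked bars, %), per library, with a diamond for the largest miRNA outside the family, named under the axis. The bars reach 10.2% to 16.9% and pass the diamond in het1, het2, het3, ko1 and ko2.

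A change of the 5' end or of a seed base gives a member another seed, and with it another score. Of the summed mean level of reads with a member name, 97.8% kept AGCAGC and 29 other seeds shared the rest. Reads on the member hairpins that carry no mature name, 265 CPM on average, are not in these values. With them 97.3% kept AGCAGC, and there were 54 other seeds. The other-seed share was 2.06% ± 0.26 in het and 2.32% ± 0.28 in ko (SD, n = 4, exact permutation p = 0.257, adjusted 0.643). By mean level 78.7% of the named reads with another seed had a score of 40 or more, and 74.1% with the unnamed reads added. The main ones began 1 base later, with seed GCAGCA (0.825% of the family, viability 42.4), or 1 base earlier, with seed UAGCAG (0.433%, viability 50.7). The seed GCAGCA is also that of miR-103-3p and miR-107-3p, metabolic miRNAs that begin agcagcau and averaged 6517 and 3230 CPM. Both had overlapping groups, with log2 fold changes of 0.10 (SE 0.27) and -0.27 (SE 0.38). Shifted members added 146 CPM to that seed.

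The members kept their seed unequally. The other-seed share was 1.99% for miR-16-5p, 1.63% for miR-15a-5p, 1.39% for miR-195a-5p and 2.92% for miR-15b-5p, but 7.11% ± 2.14 for miR-497a-5p and 8.68% ± 4.50 for miR-322-5p (SD, n = 8). The 3 most abundant reads of the family with another seed are shown, from the deposited table, with bases 2 to 8 of the read in capitals.

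miR-16-5p, begun 1 base late: aGCAGCACgtaaatattggcg

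miR-497a-5p, with G at base 2: cGGCAGCAcactgtggtttgt

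miR-16-5p, begun 1 base early: cTAGCAGCacgtaaatattggcg

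They averaged 62.1, 20.7 and 17.4 CPM. The first and the third were 0.505% and 0.141% of miR-16-5p. The second was 2.79% of miR-497a-5p, and it begins at the annotated 5' end.

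In miR-497a-5p the change was A2G, counted from 1 at the annotated 5' end of the mature strand. It turned the seed AGCAGC into GGCAGC, which has a viability of 9.7. Summed over 6 sequences, the A2G reads stood at 25.1, 35.8, 33.8 and 27.4 CPM in het1 to het4 and at 27.9, 26.6, 31.4 and 31.4 CPM in ko1 to ko4. Their mean was 29.9 ± 3.7 CPM (SD, n = 8). The other reads of miR-497a-5p with the same start ranged from 439 to 1089 CPM, with a mean of 703 ± 236 CPM (SD, n = 8).

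As a share of miR-497a-5p reads with the annotated start, A2G was 2.47%, 5.51%, 5.54% and 2.46% in het and 5.96%, 3.89%, 6.27% and 3.81% in ko. It was lowest in het1 and het4, where miR-497a-5p itself was highest. The mean was 3.99% ± 1.77 in het and 4.98% ± 1.31 in ko (SD, n = 4, exact permutation p = 0.400, adjusted 0.643). The counts behind it ran from 13 to 529 reads, and the widest Wilson interval spanned 2.93 percentage points. The A2G level and the level of the other reads had an r of -0.427 (rho -0.524, n = 8, exact permutation p = 0.286 and 0.197, adjusted 0.380 and 0.295). Without the 2 farthest libraries r was 0.155.

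The same change was rare in the other members. It made up 0.0938% ± 0.0248 of miR-16-5p, 0.0590% of miR-15a-5p and 0.153% of miR-195a-5p (means of 8 libraries). In miR-15b-5p and miR-322-5p the table held 0 such reads of 15879 and 5797 pooled reads, which allows a share of up to 0.0189% and 0.0518% by counting alone, and the removal of sequences under 8 reads could hide more. miR-497a-5p exceeded the highest of the other members in 8 of 8 libraries, by 4.32 percentage points on average (exact sign-flip test, two-sided, p = 0.00781, the smallest possible). This contrast was chosen after the values were seen.

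Counted over named and unnamed reads that begin at the annotated 5' end, single changes at bases 2 to 8 were of 20 kinds, which made 53 combinations of a member and a change. After A2G in miR-497a-5p the most frequent was A5G in miR-195a-5p, at 0.429% of pooled reads, all of them without a mature name, whereas the A2G reads of miR-497a-5p all carried it. Of all reads with the seed GGCAGC in the table, miR-497a-5p supplied 64.6%, miR-16-5p 24.6%, miR-15a-5p 4.18% and miR-195a-5p 2.99%. The most abundant A2G read matched 0 of the RefSeq hairpins and 0 of the 141767 GENCODE M21 transcripts on either strand. The cause of the change was not tested.

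**Figure D4:**
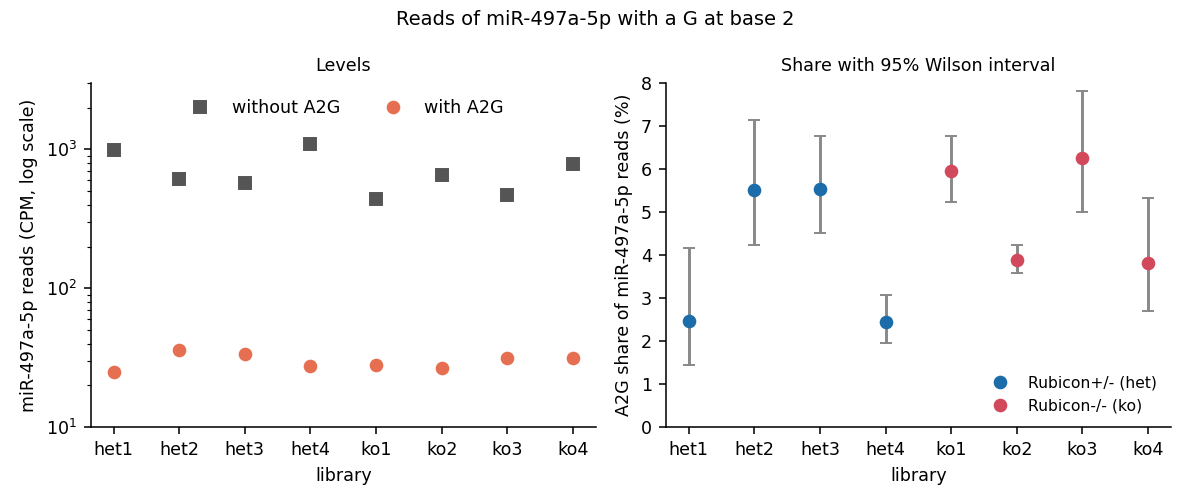
Left, level of miR-497a-5p reads with and without A2G in each library (CPM, log axis). Right, share of miR-497a-5p reads with A2G (%) with its 95% Wilson interval; the level with A2G stays between 25.1 and 35.8 CPM while the share runs from 2.46% to 6.27%.

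The 3' ends set the members apart as well. Reads of miR-16-5p that begin at the annotated 5' end were 22 nt long in 64.9% of cases, and those of miR-497a-5p 21 nt in 76.6%, 1 base short of the mature strand in RefSeq. miR-15a-5p was split between 21 nt (42.8%), 22 nt (27.3%) and 23 nt (26.8%). miR-195a-5p and miR-15b-5p were 22 nt in 42.4% and 42.5%. miR-322-5p was the most spread, with 38.2% at 22 nt, 26.6% at 21 nt and 23.9% at 20 nt.

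**Figure D5:**
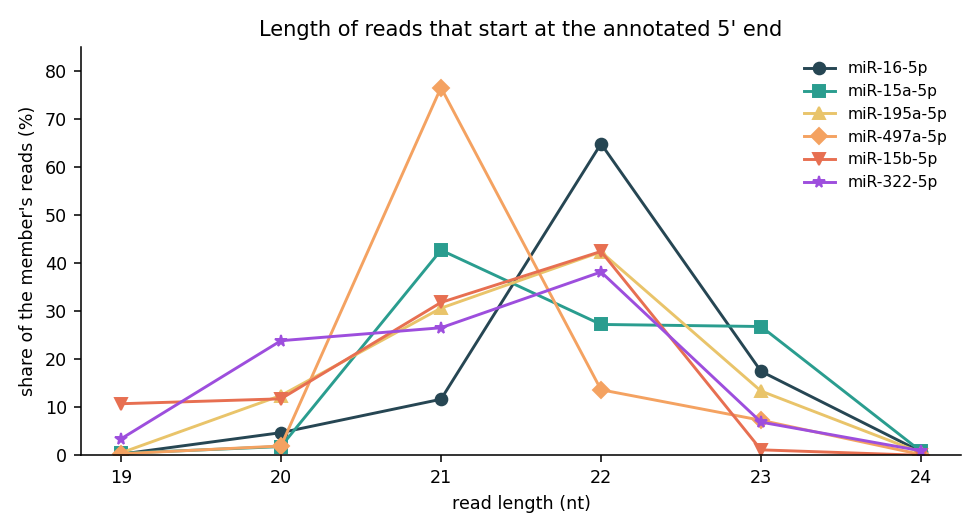
Length of member reads that begin at the annotated 5' end, as a share of each member's reads (%), from mean CPM over the 8 libraries. miR-497a-5p peaks at 21 nt (76.6%) and miR-16-5p at 22 nt (64.9%), whereas miR-15a-5p is spread over 21 to 23 nt.

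Some 3' ends held bases that the hairpin does not encode. For miR-16-5p a common form is shown because its last base is absent from both hairpins.

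miR-16-5p with an added a: tAGCAGCAcgtaaatattggcga

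This read stood at 792, 855, 1182 and 759 CPM in het and at 857, 1202, 774 and 539 CPM in ko, and it was 7.08% of miR-16-5p. Ends with 1 or 2 such added a bases made up 11.7% ± 1.1 of miR-16-5p (SD, n = 8). By mean level non-encoded ends of any kind were 12.3% of miR-16-5p, 11.2% of miR-195a-5p, 8.11% of miR-497a-5p, 3.48% of miR-15b-5p and 14.5% of miR-322-5p. An added base that equals the next base of the hairpin counts as encoded, so these shares are not directly comparable between members. Among ends classed as non-encoded in miR-497a-5p, added u bases (4.22%) outnumbered added a bases (3.33%). An a added to its main 21 nt form equals the encoded base 22 and counts as encoded. The order of u and a over all added bases therefore cannot be read from these values. Both miR-16 hairpins go on with u after the mature strand, so a u added there counts as encoded. The added u share of miR-16-5p therefore cannot be set beside that of miR-497a-5p. For miR-15a-5p no hairpin was at hand and the ends were not classed. Over the 5 members the share was 12.0% ± 1.1 in het and 11.5% ± 0.7 in ko (SD, n = 4, exact permutation p = 0.371, adjusted 0.643).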

How the data were processed

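Sample titles gave the genotype and the replicate number of each library. The authors pulled down Argonaute complexes, sequenced gel-extracted short RNAs and processed reads with Trim Galore and the SPOROS pipeline; genome build and versions are not given in the sources used here. The deposited values are CPM per distinct sequence, scaled by the authors to 1000000 reads per library, and a column of total CPM is the authors' sum. The deposited viability score per 6mer seed is the authors' mean over mouse cell lines. No deposited sequence had fewer than 8 reads in all. All CPM values were whole multiples of 1 read (within 0.1 read), which gave depths of 509839 to 19878054 reads. Depth limits rare isoforms, and the spread between mice the rest. Whether molecular identifiers were used is not given in the sources used here, so intervals cover counting error only.

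CPM were summed per miRNA name. A filter of 10 CPM on the mean left 463 miRNAs, which went into limma 3.58.1 (trend and robust) on log2(CPM + 1) in R 4.3.3, Benjamini-Hochberg adjusted with a threshold of 0.05, both genotypes in 1 fit and no covariate. A fold change on this scale understates that of low miRNAs. The per-library measures had exact two-sided permutation tests over 70 splits (smallest p 0.0286), adjusted over 6 measures, of which the A2G and 3' end shares were added after the data were seen. Steps between members had exact sign-flip tests (smallest p 0.00781). edgeR 4.0.16 and DESeq2 1.42.0 on recovered reads, other pseudocounts, filters and thresholds, left-out libraries and a replicate block were alternatives. The limma, edgeR and DESeq2 fits were tested on simulated data. Other computations used Python 3.11.15 with scipy 1.17.1.

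Reads were set on RefSeq hairpins (GRCm38.p6), host genes are from GENCODE M21, and the coordinates are those of that build, not of the authors' alignment. All 6 members matched a RefSeq mature strand. Seed changes were read over reads that begin at the annotated 5' end. The members and lists were chosen with earlier results of these data known. Beyond the members, passenger strands and cluster partners (mean of at least 10 CPM), miRNAs of the same or the offset seed, the 5 names with the largest share of reads under 40, the 3 miRNAs most like the family, the top read of each member and the 3 top reads with another seed were named. The most abundant miR-16-5p read with an added a was chosen after its values were seen.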

Additional observations from a re-analysis of the deposited data

Results flagged for a closer look

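1 of 28 groups of 4 libraries, taken over the members, miR-503-5p and the family measures, held a library far from the other 3: miR-15b-5p was at 375.4 CPM in het3, and the nearest het library was at 491.8 CPM. The gap was 0.856 of the range of the group. Chance alone sets apart about 1 in 20 such groups, or 1.4 of 28.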

How the results depend on the processing

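Under 20 alternatives 0 members were called, where 4 to 10 of all the 278 to 895 miRNAs tested were called. The log2 fold changes of miR-16-5p, miR-195a-5p and miR-15b-5p turned to 0.13, 0.14 and 0.12 with libraries centred on the median, to 0.05, 0.04 and 0.05 with edgeR and to 0.06, 0.05 and 0.06 with DESeq2. With 1 library left out they ran from -0.28 to 0.16 for miR-16-5p and from -0.23 to 0.08 for miR-195a-5p, positive without het3 or ko4, and from -0.30 (without ko3) to near 0 (without ko1) for miR-15b-5p. miR-15a-5p ran from -0.67 (without ko2) to -0.29 (without ko4), miR-497a-5p from -0.59 to -0.30 and miR-322-5p from -0.57 to -0.25 (without ko3), none called; centring, edgeR and DESeq2 put them at -0.20, -0.24 and -0.23, at -0.22, -0.31 and -0.29, and at -0.24, -0.27 and -0.26. Without the libraries over 5000000 reads miR-15b-5p turned to 0.09, and miR-16-5p, miR-195a-5p, miR-15a-5p and miR-322-5p were at -0.46, -0.33, -0.79 and -0.67. The difference (ko minus het) in the family share of all reads was -0.174 percentage points and ran from -0.364 to 0.0272 with 1 library left out, above 0 without ko4, and was -0.533 without the 2 deep libraries (exact permutation p = 0.267). That in the share of reads under 40 was -0.212 and ran from -1.44 to 0.970, above 0 without het1, het3, ko3 or ko4, and with a limit of 30 it was 0.00793. Without the 2 libraries over 5000000 reads it was -3.33 (exact permutation p = 0.267). With 1 library left out p could not go below 0.0571, and without the 2 deep ones not below 0.133. The miR-16-5p share difference of 3.56 points ran from 0.895 to 5.99, the other-seed difference from 0.120 to 0.372 (0.274 with the unnamed reads), the A2G difference from 0.479 to 1.51 and the 3' end difference from -1.06 to -0.308. 4 steps in the order passed in each alternative but 1: without the 2 deep libraries 0 passed, where 6 libraries limit the exact test. Replicate numbers showed no clear pairing of the mice (correlations of deviations 0.04, 0.29, -0.18 and 0.25, and 3 of 8 libraries closest to their own number). These values cannot exclude a pairing, and the labels do not give one. The replicate block called 10 miRNAs in place of 6 and 0 members, and with it the measure differences kept their values, -0.174 and -0.212 included, with p of 0.375 and 0.875 (smallest possible 0.125). The cause of these changes was not tested.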
